A study of Caenorhabditis elegans with 8 samples.

Results

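The 81 genes described here carry the names of the proteins of the cytosolic ribosome of Caenorhabditis elegans, and one of them, rpl-24.2, is the counterpart of a yeast assembly factor and not of a ribosomal protein. They are every gene of the deposited table, out of 17076 listed genes, whose WormBase symbol begins with rpl or rps and a number, together with the stalk genes rla-0, rla-1 and rla-2. The large subunit accounts for 50 of them, stalk included, and the small subunit for 31. Genes were chosen by name and not by their values, though with earlier results of these data known. The label fits the data as far as levels go, since 79 of the 81 genes had a mean value above 1000 and 70 were among the 200 genes with the highest mean value in the table. The exceptions below 1000 were rpl-37 and rpl-42.

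A ribosome is built from ribosomal RNA and one copy of almost every ribosomal protein, in a small subunit that reads the messenger RNA and a large subunit that joins amino acids. The stalk proteins form a flexible arm on the large subunit that recruits the translation factors. Because the proteins are needed in matched amounts, their messenger RNAs are abundant and tend to be produced together, with high demand in growing tissue and in the germline. In C. elegans a few of these proteins are encoded by a pair of genes, and genes on the X chromosome are largely silent in the germ cells.

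The series compared whole wild-type N2 hermaphrodites at adult day 5 with those at adult day 1, with 4 libraries of each age that carry batch numbers 1 to 4. Larvae synchronized at the first stage were grown at 20 °C on agar plates with OP50, an E. coli strain used as food, for 180 h (day 5) or 60 h (day 1). These times are 120 h apart, while the day names are 4 days apart, and the design text gives both ages the name that belongs to day 5. Libraries were made from poly(A)-selected RNA of whole animals. No label states that the libraries of an age came from separate cultures, so the p-values measure the spread between libraries, which may be technical. In whole animals, fewer cells of a type and less RNA per cell cannot be told apart.

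The libraries held 20569012 to 22305681 assigned reads at day 5 and 19345868 to 20763236 at day 1. Each value is a gene's reads over a scaling factor common to its library, so values compare a gene between libraries but favour long genes within one. A gene was called changed when the adjusted p was under 0.05 by limma on log2(value + 1), with Benjamini-Hochberg adjustment over all 16739 genes tested. That fit took no account of batch. At day 1 the libraries of batches 3 and 4 stood apart from those of batches 1 and 2, with lower shares of reads on all 5 marker lists. The 12 germline and oocyte markers made up 0.681% to 0.857% of reads at day 5, against 0.176% and 0.176% in batches 1 and 2 and 0.0786% and 0.0915% in batches 3 and 4 at day 1. Of these 12 markers, 11 were called higher at day 5. The 6 yolk genes held 3.07% to 5.56% of reads at day 5 and 0.000554% to 0.0234% at day 1, and all 6 were called higher. Muscle and moult genes went the other way. The 10 body wall muscle markers held 0.232% to 0.554% of reads at day 5 and 0.944% to 2.02% at day 1, and all 10 were called lower. The 12 moult markers held 0.0198% to 0.0561% of reads at day 5 and 0.139% to 0.425% at day 1, with 11 called lower. At day 1 the moult share was 0.425% and 0.370% in batches 1 and 2 and 0.139% and 0.283% in batches 3 and 4, and the muscle share was 1.596% and 2.02% in batches 1 and 2 and 0.944% and 1.51% in batches 3 and 4. The 9 sperm markers held 0.0019% to 0.0112% of reads at day 5 and 0.00132% to 0.0278% at day 1, with 1 called lower. No marker was at 0 in all libraries of an age, and vit-3, vit-5 and spe-38 were at 0 in some day 1 library. The part of these tissue differences in the results below was not tested.

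Ribosomal protein messenger RNA made up a smaller share of the reads at day 5. The 81 genes together took 6.99%, 9.62%, 9.12% and 9.97% of all assigned reads in batches 1 to 4 at day 5, against 12.8%, 12.7%, 20.3% and 16.2% at day 1. The highest day 5 library lay below the lowest day 1 library, and the day 1 libraries of batches 3 and 4 were the highest of all. The mean share was 8.93% ± 1.33 at day 5 and 15.5% ± 3.6 at day 1 (SD, n = 4 each). The difference was -6.59 percentage points with all libraries and -3.84 points with the day 1 libraries of batches 3 and 4 left out. In another total, genes of the highest 1% of mean values were left out unless they were members. The share was then 10.7% ± 1.6 at day 5 and 19.1% ± 4.39 at day 1. Both subunits showed the same order. Large subunit genes took 4.12%, 5.56%, 5.34% and 5.80% of reads at day 5, against 7.53%, 7.52%, 11.06% and 9.13% at day 1. Small subunit genes took 2.88%, 4.05%, 3.78% and 4.17% at day 5, against 5.31%, 5.17%, 9.27% and 7.07% at day 1.

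**Figure D1:**
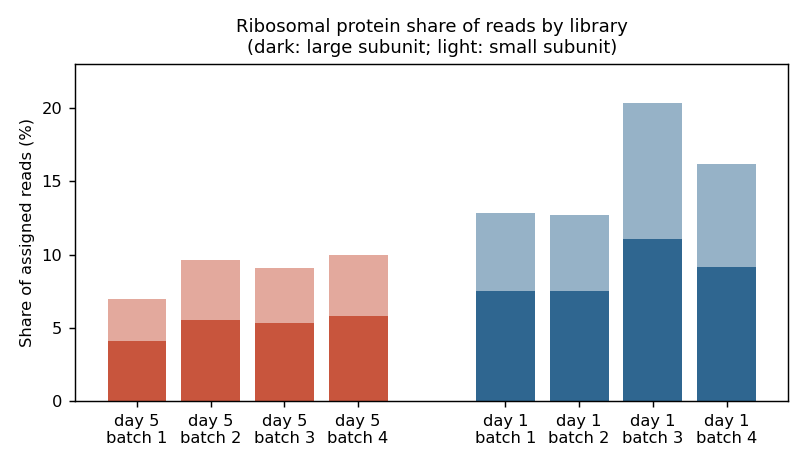
Share of all assigned reads, in percent, that fell on the 81 ribosomal protein genes in each library, with day 5 left of day 1; each bar is 1 library, with the large subunit in the dark lower part and the small subunit in the light upper part. The 4 day 5 libraries lie between 6.99% and 9.97%, below the 4 day 1 libraries at 12.7% to 20.3%.

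Of the 81 genes, all passed the filter on low values, 51 were called lower at day 5 by limma and 0 were called higher. The 51 are 63.0% of the members, while 26.8% of all genes tested were called lower and 28.8% were called higher. No member was higher at an unadjusted limma p under 0.05 either, and edgeR and DESeq2 called 0 higher, with 55 and 59 called lower. Those 2 methods called 27.9% and 29.1% of all genes tested lower. In the limma fit 79 of the 81 estimates were negative, the exceptions being rpl-25.2 and rpl-11.1, and the median log2 difference was -0.67 with a range of -2.23 to 0.34, beside -0.06 for all genes tested. The median member's day 5 mean was 59.5% of its day 1 mean. The 2 ages did not overlap, with day 5 lower, for 49 members, against 25.2% of all genes tested, and no member was higher in every day 5 library. The share of all genes that were higher in every day 5 library was not counted. Tested by limma against a 1.5-fold difference, 3 members (rpl-37, rpl-11.2 and rpl-25.1) were called lower. That is 3.70% of members beside 17.0% of all genes tested. The test weighs the spread between libraries along with the size of a difference, so an uncalled member may still differ by more. The median estimate of -0.67 was itself beyond 1.5-fold.

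The count of calls, and its excess over the share of all genes, depended on single libraries, while the direction of the median did not. Leaving out 1 library gave 18 members called lower without day 5 batch 1, 23 without day 5 batch 2, 18 without day 5 batch 3, 47 without day 5 batch 4, 53 without day 1 batch 1, 51 without day 1 batch 2, 30 without day 1 batch 3 and 18 without day 1 batch 4. In those 8 fits the median log2 difference stayed between -0.82 and -0.51. Of all genes tested, 22.8% to 26.8% were called lower in the same fits, and 18 of the 81 members is a smaller share than any of these. Members called lower in all 8 fits numbered 17, among them rpl-1, rpl-15, rpl-17, rpl-20, rpl-26, rps-6, rps-7, rps-13, rps-17 and rps-22. The share of all genes called lower in all 8 fits was not counted. Without the day 1 libraries of batches 3 and 4, 17 members were called lower and the median was -0.36. Of all genes tested, 27.5% were called lower there, above the members' share, and the median of all genes was -0.13. Under quantile normalization 13 were called lower and 1, rpl-11.1, higher. Of all genes tested, 25.8% were called lower there, again above the members' share. Among the members described below, rla-1, rpl-3, rps-6, rps-9, rps-23 and rps-25 lost their calls under that normalization. Within batches, day 5 minus day 1, the median was -0.55, -0.38, -1.34 and -0.53 in batches 1 to 4, with 77, 66, 80 and 75 of the 81 members lower. The medians of all genes tested were -0.05, -0.05, 0.07 and 0.03. Members lower in all 4 batches numbered 65, and the matching share of all genes was not counted.

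Large subunit genes were called lower in 31 of 50 cases (62.0%), beside 26.8% of all genes tested, and 48 of the 50 estimates were negative. Their median log2 difference was -0.67, and the calls ran from -0.48 to -2.23. rpl-37 (WBGene00004451, WBcel235 chromosome III, 3528642 to 3528917, plus strand) had the most negative difference of all 81 genes. Its values were 29.3, 55.9, 22.1 and 25.9 in batches 1 to 4 at day 5, against 109.6, 101, 295 and 154 at day 1. Every day 5 library was below every day 1 library, and the level was low for a ribosomal protein gene at both ages. rpl-37 fell by 2.23 on the log2 scale (SE 0.44, limma adjusted p = 0.00171).

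rpl-22 (WBGene00004434), which encodes an RNA-binding protein on the outer face of the large subunit, had values of 13701, 17409, 15714 and 22529 at day 5, against 27049, 24869, 65905 and 36829 at day 1. The groups did not overlap, and day 1 batch 3 was the highest library. rpl-22 fell by 1.07 (SE 0.32, limma adjusted p = 0.0163). rpl-3, whose protein reaches toward the peptidyl transferase centre and which was picked after its values were seen, fell by 0.65 (limma adjusted p = 0.026). Its call was lost without day 5 batch 1, 2 or 3 or day 1 batch 2 or 4, with limma adjusted p of 0.0596 to 0.0719. rpl-10, whose protein joins the large subunit late in its assembly, was not called. It had values of 53152, 51511, 50976 and 58963 at day 5, against 57907, 54898, 100274 and 79586 at day 1, and the groups overlapped (log2 difference -0.41, limma adjusted p = 0.183). Under quantile normalization the estimate for rpl-10 had the opposite sign, at 0.06.

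The stalk genes differed in how far they were apart between the ages. rla-1 (WBGene00004409, chromosome I, 2069086 to 2069575, minus strand) had values of 26113, 28093, 27168 and 35946 at day 5, against 40987, 39181, 135427 and 67631 at day 1, and day 1 batch 3 held the highest value. The groups did not overlap, and rla-1 fell by 1.09 (SE 0.38, limma adjusted p = 0.0319). rla-2 (WBGene00004410) had values of 9523, 10854, 9751 and 12928 at day 5, against 15338, 13618, 48807 and 24567 at day 1. The groups did not overlap and day 1 batch 3 was again highest, and rla-2 fell by 1.07 (SE 0.37, limma adjusted p = 0.0318). For both, the call was lost without day 5 batch 1, 2 or 3 or without day 1 batch 4, with limma adjusted p of 0.0678 to 0.0739 for rla-1 and 0.0624 to 0.0745 for rla-2. rla-0 (WBGene00004408), the protein that anchors the other stalk proteins to the subunit, had values of 55512, 58965, 56791 and 72037 at day 5, against 73652, 75341, 82476 and 87660.0 at day 1. The groups did not overlap, with a narrow gap between day 5 batch 4 and day 1 batch 1, but the log2 difference of -0.40 was not called (SE 0.20, limma adjusted p = 0.117). Under quantile normalization the rla-0 estimate was 0.08. Whether rla-0 differed from rla-1 and rla-2 was not tested.

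Small subunit genes were called lower in 20 of 31 cases (64.5%), beside 26.8% of all genes tested, and all 31 estimates were negative. Their median log2 difference was -0.73, and the calls ran from -0.55 to -1.01. rps-9 (WBGene00004478), a protein of the subunit body near the messenger RNA entry, had values of 30667, 34495, 35412 and 44178 at day 5, against 53403, 50656, 125590.0 and 79832 at day 1. The groups did not overlap, and rps-9 fell by 1.01 (SE 0.31, limma adjusted p = 0.0181). rps-23, a protein of the decoding centre, had values of 28388, 36429, 31035 and 40211 at day 5, against 45136, 41577, 118703 and 70055 at day 1, with no overlap. rps-23 fell by 0.90 (limma adjusted p = 0.0425), and the call was kept only without day 1 batch 1 or 2, since leaving out each other library gave adjusted p of 0.0569 to 0.102. rps-25 had values of 24270.0, 26907, 25040.3 and 31265 at day 5, against 35066, 32550.2, 62426 and 45576 at day 1. Its groups did not overlap, and it fell by 0.67 (limma adjusted p = 0.0385). That call was lost without day 5 batch 1, 2 or 3 or day 1 batch 3 or 4, with adjusted p of 0.0642 to 0.0925. rps-6, whose protein is the target of the S6 kinase and which was picked after its values were seen, fell by 0.82 (limma adjusted p = 0.00765). rps-24 had values of 22713, 30069.5, 26375 and 33305 at day 5, against 32228, 29225, 99978 and 50039 at day 1. Its groups overlapped, and the log2 difference of -0.74 was not called (limma adjusted p = 0.114).

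**Figure D2:**
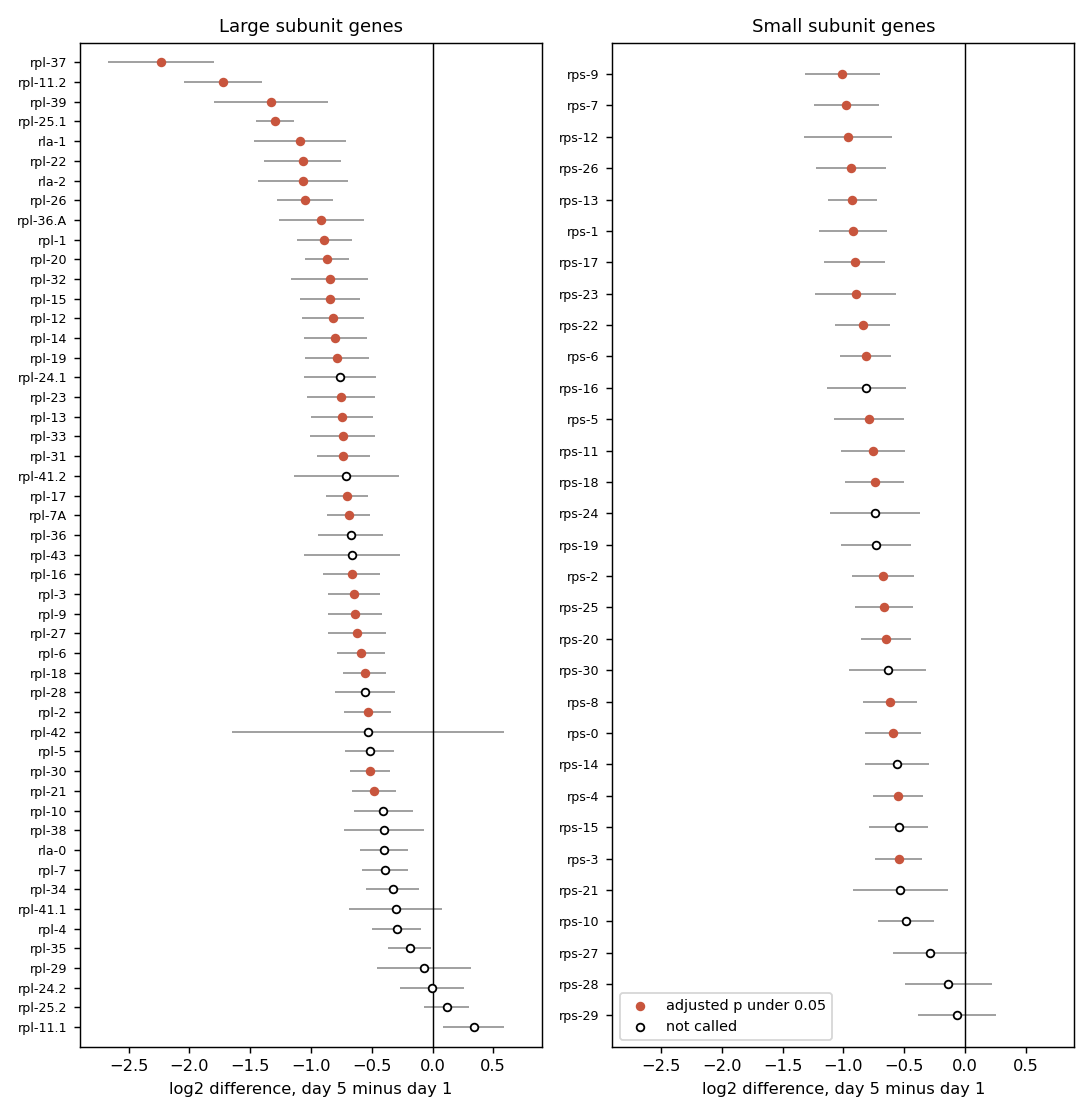
Log2 difference, day 5 minus day 1, of each of the 81 genes by limma with its standard error, large subunit and small subunit in separate panels; filled points were called lower and open points were not called. The calls run from -0.48 to -2.23, and both positive estimates (rpl-25.2 and rpl-11.1) belong to the large subunit.

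Members that form a pair by name divided their reads differently at the 2 ages. There were 4 such pairs, rpl-11.1 with rpl-11.2, rpl-24.1 with rpl-24.2, rpl-25.1 with rpl-25.2 and rpl-41.1 with rpl-41.2. For each pair the log2 ratio of the 2 genes was compared by an exact permutation test over the 8 libraries (two-sided, n = 4 each), and each gave p = 0.0286, the smallest value that 4 against 4 allows, and 0.0286 after adjustment over the 4 pairs. That test sets the batch aside. Paired by batch, an exact sign-flip permutation test gave p = 0.125 for each pair, the smallest value that 4 batches allow, so the paired test cannot reach the threshold, and all 4 batches had the same sign in each pair. How reads from copies of a gene with near-identical sequence were counted is not known, which leaves the levels of such a pair uncertain.

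The rpl-11 pair encodes a protein that binds the smallest ribosomal RNA of the large subunit together with rpl-5. rpl-11.2 (WBGene00004423, WBcel235 chromosome X, 2241738 to 2242618, minus strand) had values of 12370.2, 13442, 14869.5 and 16592 at day 5, against 31434, 32569, 85817 and 54986 at day 1. All day 5 libraries were below all day 1 libraries, and rpl-11.2 fell by 1.72 (SE 0.32, limma adjusted p = 0.00132). rpl-11.1 (WBGene00004422, chromosome V, 3585312 to 3586064, minus strand) had values of 20330.4, 24336, 22969 and 30192 at day 5, against 16789, 15379.7, 30497 and 17082 at day 1. Day 1 batch 3 alone exceeded all day 5 libraries, and the log2 difference of 0.34 was not called (SE 0.25, limma adjusted p = 0.287). Without day 1 batch 3, rpl-11.1 was called higher at 0.56 (limma adjusted p = 0.0277). rpl-11.1 supplied 62.2%, 64.4%, 60.7% and 64.5% of the pair's reads at day 5, against 34.8%, 32.1%, 26.2% and 23.7% at day 1. It was the more abundant copy in all 4 day 5 libraries and the less abundant in all 4 day 1 libraries, and its share was 63.0% ± 1.86 at day 5 and 29.2% ± 5.13 at day 1 (SD, n = 4 each). Per kb of exon the ratio of rpl-11.1 to rpl-11.2 averaged 1.91 at day 5 and 0.467 at day 1. The difference of the log2 ratio was 2.06, against 1.76 when day 1 batches 3 and 4 were left out.

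The rpl-25 pair encodes the counterpart of human RPL23A, which sits at the exit of the tunnel for the growing protein. rpl-25.1 (WBGene00004438, chromosome X, 4715178 to 4715796, plus strand) had values of 4085, 3755, 4325 and 4759.6 at day 5, against 9682, 10413, 9812 and 11620.0 at day 1. The ages were far apart with little spread within each, and rpl-25.1 fell by 1.30 (SE 0.15, limma adjusted p = 9.54e-05). rpl-25.2 (WBGene00004439, chromosome I, 8329062 to 8329647, minus strand) had values of 10993, 12937, 11977 and 15075 at day 5, against 10594, 10322, 14601 and 11573 at day 1. Its groups overlapped, and the log2 difference of 0.12 was not called (limma adjusted p = 0.619) and was -0.13 when libraries were scaled without the genes of the highest 1% of values. rpl-25.1 supplied 27.1%, 22.5%, 26.5% and 23.997% of the pair's reads at day 5, against 47.8%, 50.2%, 40.2% and 50.1% at day 1. The difference of the log2 ratio was -1.41, with means of 25.03% ± 2.16 at day 5 and 47.1% ± 4.72 at day 1 (SD, n = 4 each).

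rpl-11.2 and rpl-25.1 are the only members on the X chromosome, and each has a partner on an autosome that was not called. Both X-linked members were called lower. Of the 2405 X-linked genes tested, 39.9% were called lower and 17.0% higher by limma, with a median log2 difference of -0.60. Of the 14320 autosomal genes tested, 24.6% were called lower and 30.8% higher, with a median of 0.03. At day 1 the germline marker share was 0.176%, 0.176%, 0.0786% and 0.0915% in batches 1 to 4, and the rpl-11.1 share of its pair was higher in batches 1 and 2 than in batches 3 and 4. The share of the X-linked rpl-25.1 in its pair did not follow that order, at 47.8%, 50.2%, 40.2% and 50.1%, with batch 3 lowest and batch 4 level with batch 2. The part of germline content in the pair ratios was not tested.

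The other pairs had log2 ratio differences nearer to 0. rpl-24.2, the worm counterpart of the yeast pre-ribosome assembly factor Rlp24, had values of 1767, 2034, 2272 and 2111 at day 5, against 1438, 1604, 3394 and 2216 at day 1, with overlap and a log2 difference of -0.00 (limma adjusted p = 0.996). rpl-24.1, the ribosomal protein itself, had values of 23105, 28041, 24378 and 30709.9 at day 5, against 32371, 31788, 75849 and 51495 at day 1. Its groups did not overlap, and its log2 difference of -0.76 was not called (limma adjusted p = 0.0503), while edgeR gave an adjusted p of 0.0288. rpl-24.1 supplied 92.8% ± 0.921 of the pair's reads at day 5 and 95.6% ± 0.2997 at day 1 (SD, n = 4 each), a difference of -0.76 in the log2 ratio. rpl-41.1 and rpl-41.2 encode one of the shortest proteins known and lie 699 bases apart on the same strand of chromosome I. rpl-41.1 had values of 836, 1549, 924 and 1360.5 at day 5, against 1084, 831, 2964 and 1416 at day 1, and rpl-41.2 had values of 8724, 15486, 8207 and 13108 at day 5, against 11472, 10674, 43455 and 19562 at day 1. Both overlapped between the ages and neither was called, with log2 differences of -0.30 (limma adjusted p = 0.53) and -0.71 (limma adjusted p = 0.192). rpl-41.1 supplied 9.34% ± 0.584 of the pair's reads at day 5 and 7.25% ± 0.984 at day 1 (SD, n = 4 each), a difference of 0.41 in the log2 ratio. With length trends removed, the adjusted exact permutation p of the rpl-41 pair was 0.0571.

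**Figure D3:**
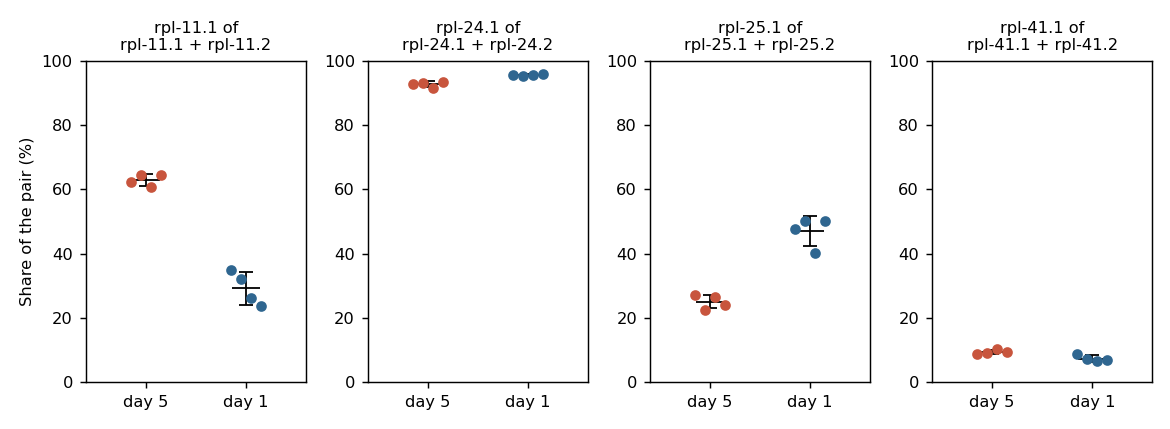
Share of each pair's reads, in percent, that fell on its first-named gene in each library, day 5 left of day 1, for the 4 gene pairs; points are libraries, and the black mark with its error bar is the mean ± SD (n = 4). rpl-11.1 lies at 60.7% to 64.5% at day 5 and 23.7% to 34.8% at day 1, and rpl-25.1 at 22.5% to 27.1% at day 5 and 40.2% to 50.2% at day 1.

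With every library scaled to the same median over the 81 genes, a scaling added after the data were seen, 6 members were called apart from the rest. By limma 2 of these were lower, rpl-37 at -1.56 (adjusted p = 0.00634) and rpl-11.2 at -1.05 (adjusted p = 0.00189). Another 4 were called higher than the members' median, rpl-11.1 at 1.01 (adjusted p = 0.00118), rpl-25.2 at 0.79 (adjusted p = 0.00444), rpl-24.2 at 0.67 (adjusted p = 0.0109) and rps-29 at 0.60 (adjusted p = 0.0482). Under that scaling 13.8% of all genes tested were called lower and 38.1% higher.

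The 30 uncalled members had log2 differences of -0.81 to 0.34, and 5 of the 30 had groups that did not overlap, all from the large subunit. rpl-29 (WBGene00004443, a short protein of the large subunit) had values of 2885, 9129, 3445 and 5574 at day 5, against 4117, 3782, 8696 and 4564 at day 1. Its highest values were in day 5 batch 2 and day 1 batch 3, the groups overlapped, and the difference was -0.07 (limma adjusted p = 0.892). rps-29, a short zinc-binding protein of the small subunit, had values of 3785, 6713, 3827 and 5242 at day 5, against 3723, 3485, 8998 and 5274 at day 1. The same libraries were highest, and its log2 difference was -0.07 (limma adjusted p = 0.876). rpl-42, which was picked after its values were seen, had the lowest level of all members, with values of 0, 20.49, 11.5 and 7.97 at day 5, against 46.7, 16.5, 2.20 and 2.91 at day 1. Its library order was not that of the other members, and the log2 difference of -0.53 was not called (limma adjusted p = 0.72). The other uncalled large subunit members were rpl-4, rpl-5, rpl-7, rpl-28, rpl-34, rpl-35, rpl-36, rpl-38 and rpl-43. The other uncalled small subunit members were rps-10, rps-14, rps-15, rps-16, rps-19, rps-21, rps-27, rps-28 and rps-30.

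Libraries of 1 age differed among themselves in a way shared by most members. The median SD of log2 values over members was 0.20 at day 5 and 0.46 at day 1, beside 0.36 and 0.54 for all genes tested. At day 5 batch 4 was the highest library for 68 members and batch 2 for 12, while batch 1 was lowest for 65. At day 1 batch 3 was the highest for 71 members, and batch 2 was lowest for 50 and batch 1 for 26. The 12 members highest in day 5 batch 2 were rpl-29, rpl-37, rpl-38, rpl-39, rpl-41.1, rpl-41.2, rpl-42, rpl-43, rps-21, rps-27, rps-28 and rps-29. Their median exonic length was 278 bases, against 587 bases for the other 69 members.

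**Figure D4:**
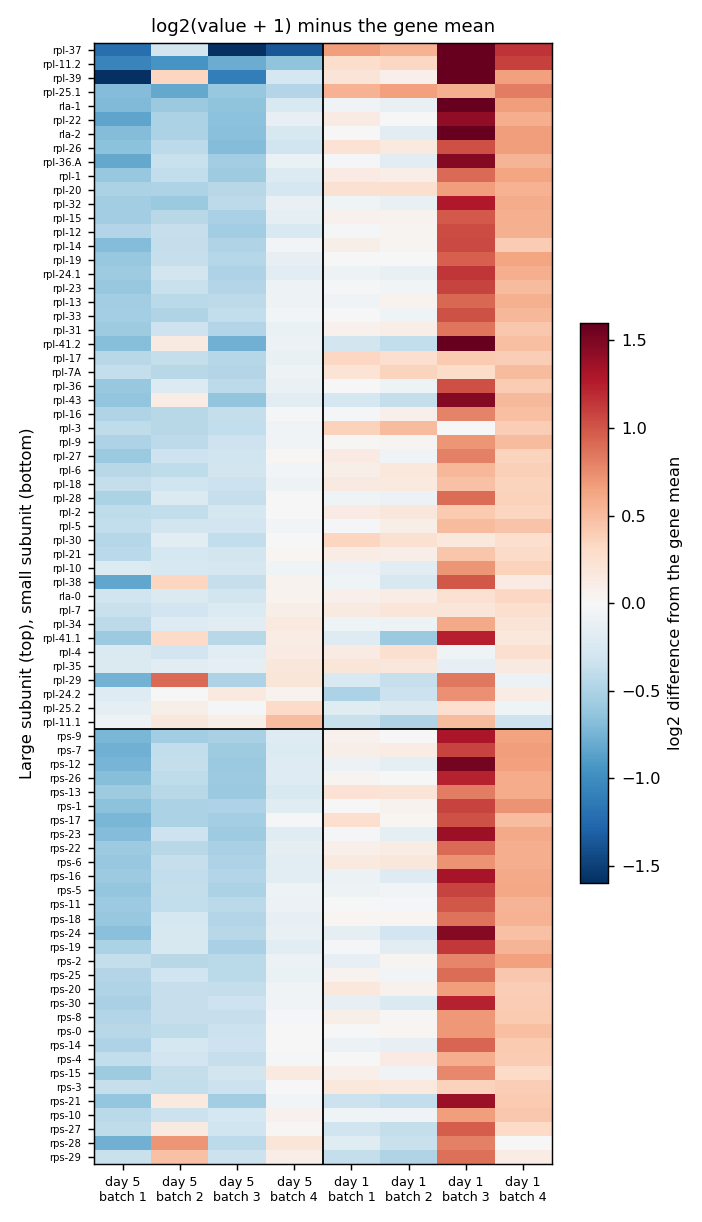
Log2(value + 1) of each member (1 line per gene, large subunit above small subunit) in each library, with day 5 columns left of day 1 columns, minus the gene's own mean over the 8 libraries; colour is limited to 1.6 on either side of 0, and rpl-42 is left out. Day 1 batches 3 and 4 are high for most genes, and a block of short genes is high in day 5 batch 2.

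Members varied with transcript length within an age. Across the 81 genes, Spearman's rho between exonic length and a library's log2 difference from the other 3 libraries of its age was 0.58, -0.54, 0.41 and -0.01 in batches 1 to 4 at day 5, against 0.34, 0.61, -0.64 and 0.39 at day 1. These are descriptions across genes of the same library, which are not independent replicates. In day 5 batch 2 the 11 members under 350 exonic bases had a median of 0.66 relative to the other libraries and the 70 longer members -0.04. In day 1 batch 3 the medians were 1.30 and 0.67. Of the 11 short members 2 were called lower (rpl-37 and rpl-39), and of the 70 longer ones 49 were. rpl-39, whose protein lines the exit tunnel and which was picked after its values were seen, had values of 666, 2593, 947 and 1675 at day 5, against 2349, 2167, 6692 and 3223 at day 1. Day 5 batch 2 overlapped the day 1 values, and rpl-39 fell by 1.33 (limma adjusted p = 0.0344), with an edgeR adjusted p of 0.0508. The rpl-39 call was lost without day 5 batch 1 or 3 or day 1 batch 3 or 4, with limma adjusted p of 0.0675 to 0.0948. The log2 difference between ages had a rho of 0.01 with length across members. With the length trend of each library removed within its age, an alternative added after the data were seen, 70 members were called lower by limma and the median was -0.71. Of all genes tested, 29.5% were called lower there.

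**Figure D5:**
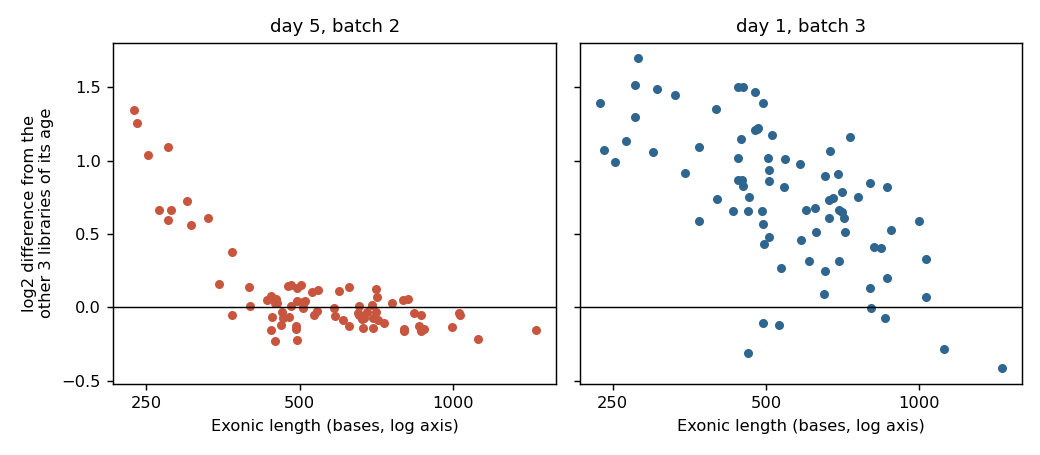
Log2 difference of each member in 1 library from the other 3 libraries of the same age, against exonic length in bases on a log axis, for day 5 batch 2 (left) and day 1 batch 3 (right); each point is a gene and rpl-42 is left out. Short members lie high in both, where rho over all 81 genes was -0.54 and -0.64.

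Per kb of exon, so that levels can be set side by side, the median member stood at 41030 at day 5 and 64602 at day 1. The highest at day 5 were rpl-10 at 76974 ± 5252, rps-23 at 70573 ± 11028, rps-25 at 67176 ± 7829 and rla-1 at 66508 ± 10168 (mean ± SD of value per kb, n = 4), and their SDs overlap. At day 1 the highest were rla-1 at 160559 ± 102043, rps-23 at 142879 ± 73770.5 and rps-9 at 115650.0 ± 51919, with SDs wide enough that the order among them is not settled. The lowest at both ages was rpl-42, then rpl-37.

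The members are spread over all chromosomes but unevenly. Chromosome I holds 25 of them, which is 30.9% of members beside 15.4% of listed genes, and the X chromosome holds 2, which is 2.47% beside 14.3%. Small nucleolar RNA genes, which guide modification of ribosomal RNA, lie inside 13 members and number 19. Of those 13 genes 9 were called lower with a median log2 difference of -0.69, against 42 of the 68 without one and a median of -0.67. The share of all genes tested called lower was 26.8%. Neighbouring members within 2 kb formed 4 pairs, of which rps-10 with rpl-24.1, rps-14 with rpl-36 and rpl-39 with rps-30 are divergent, and in these only rpl-39 was called. Another gene shares exonic bases with 15 members, and how reads there were counted is not known.

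Counts in other lists of the translation machinery stand beside the 26.8% of all genes tested that were called lower and the 28.8% called higher. The 3 ribosomal proteins outside the naming rule gave 2 genes called lower and 0 higher by limma, with a median of -0.56, and 0 were higher at an unadjusted p under 0.05 or by edgeR or DESeq2. The genes called were ubl-1 and ubq-2, which encode ribosomal proteins fused to a ubiquitin-like domain and to ubiquitin. They were at -0.80 (limma adjusted p = 0.0272) and -0.56 (limma adjusted p = 0.0387). The small subunit scaffold rack-1 was at -0.51 (limma adjusted p = 0.0521) and not called. Of 9 elongation and eIF5A genes 1 was called lower (11.11% of them) and 2 higher (22.2%), with a median of -0.06. iff-2, which encodes eIF5A in somatic tissue, fell by 1.93 (limma adjusted p = 0.000112), with 4528 ± 534 at day 5 and 17781 ± 5564 at day 1 (mean ± SD, n = 4 each). iff-1, the germline copy, rose by 0.79 (limma adjusted p = 0.00406), with 8538 ± 1212 at day 5 and 4954 ± 725 at day 1 (mean ± SD, n = 4 each). Of 35 initiation genes 2 were called lower (5.71%) and 7 higher (20.0%), with a median of -0.07. Of 39 biogenesis genes 3 were called lower (7.69%) and 10 higher (25.6%), with a median of 0.19. fib-1, the fibrillarin that methylates ribosomal RNA, fell by 0.65 (limma adjusted p = 0.0355), while riok-2, a kinase of small subunit assembly, rose by 1.17 (limma adjusted p = 0.000173). Of 21 aminoacyl-tRNA synthetases 0 were called lower and 5 higher (23.8%) by limma, with a median of 0.30. At an unadjusted p under 0.05 limma had 1 of them lower, and edgeR and DESeq2 called 0 lower. Of 69 mitochondrial ribosomal proteins 20 were called lower (29.0%, near the share of all genes) and 0 higher by limma, with a median of -0.55, and 0 were higher at an unadjusted p under 0.05 or by edgeR or DESeq2. No test set these lists against the ribosomal proteins.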

How the data were processed

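RNA of 8 libraries was measured by sequencing of poly(A)-selected RNA. Per the submitters' processing notes, HISAT2 and HTSeq were used with build WBcel235, and for their versions, the annotation and the settings, the sources used here give nothing. The deposited table is named for FPKM, but its values are a signal that equals whole reads divided by 1 size factor per library, which the authors did not correct for gene length. Reads recovered in this way were whole within 0.01 reads for 100% of values in each library. In day 5 batch 4 the factor was so near 1 (a read is worth 0.996) that its reads are almost the values themselves. Symbols were taken from the names table (16887 of 17076 listed genes), and positions from annotation release 115 of WBcel235 (17072 genes).

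After a filter that required a mean of 1 or more, genes were compared by limma 3.58.1 on log2(value + 1) with a variance trend in R 4.3.3, day 5 minus day 1. Libraries of day 5 and of day 1 shared batch numbers, and the labels give batches. The numbers used here are those that the sample titles give to replicates. The main limma fit compared the ages without pairing, and the replicate block and the sign-flip test paired libraries by batch. Deviations of same-numbered libraries from their age means correlated at -0.22, 0.24, -0.09 and -0.02 over all genes. Over the members they correlated at -0.71, -0.02, -0.66 and -0.18. The replicate block, edgeR 4.0.16 and DESeq2 1.42.0 on recovered reads, other scalings and filters, and leaving out libraries were alternatives. Removal of the length trend and scaling to the members' median were added after seeing the data. Pair ratios were tested by an exact permutation test with scipy 1.17.1, and scripts were tested on simulated data. Fold changes on the log2(value + 1) scale understate those of low genes. Named members were those called higher, the 6 most negative without overlap, the 6 highest per kb, pair members, the stalk genes, the 4 nearest to 0 and any with a mean under 1. The members and the lists were chosen with earlier results of these data known.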

Additional observations from a re-analysis of the deposited data

Results flagged for a closer look

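In 50 groups of 4 libraries examined, the named members at each age among them, 2 had a library that lay far from the other 3, and chance alone gives about 1 such group in 20. In both the library was day 1 batch 3. The value of rpl-29 there was 8696, with a gap to the nearest library of 0.841 of the group's whole range. The value of rpl-11.1 there was 30497, with a gap of 0.887 of the range.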

How the results depend on the processing

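The replicate block gave 44 members called lower, all among the 51 called without it. The 7 that lost the call (rpl-2, rpl-21, rpl-27, rpl-30, rps-0, rps-3 and rps-4) are not described singly in the text. Paired by batch, the log2 ratio differences of the 4 gene pairs were the same (2.06, -0.76, -1.41 and 0.41), but the exact sign-flip p was 0.125 in each, the smallest possible with 4 batches. Scaling to the members' median removes their median log2 difference by design. In all other alternatives run that median kept its sign, from -1.05 without the day 1 libraries of batches 1 and 2 to -0.24 under quantile normalization. The median of all genes was -0.06 as reported and -0.30 with scaling outside the highest 1%, and members minus all genes was -0.61 and -0.63 there, but -0.12 under quantile normalization. Members called lower numbered 13 under quantile normalization (9 large, 4 small subunit), 3 against a 1.5-fold difference, 17 without the day 1 libraries of batches 3 and 4 (11 large, 6 small), and 13 small subunit members without a variance trend. Of all genes tested, 25.8% were called lower under quantile normalization and 17.0% against a 1.5-fold difference. Without the day 1 libraries of batches 3 and 4 that share was 27.5%, and without a variance trend it was 26.8%. Leaving out 1 library gave 18 to 53 members (11 to 31 large, 7 to 22 small), beside 22.8% to 26.8% of all genes tested. Leaving out 1 batch in both ages gave 28, 30, 14 and 14 for batches 1 to 4 (17, 17, 10 and 9 large, 11, 13, 4 and 5 small). In the same order, 24.6%, 22.0%, 24.1% and 19.5% of all genes tested were called lower. One member, rpl-11.1, was called higher under quantile normalization, without day 1 batch 3 and without day 1 batches 3 and 4 (1 each, against 0). The share difference was -9.34 and -3.84 points, and the rpl-11 log2 ratio difference 2.36 and 1.76, without day 1 batches 1 and 2 and without 3 and 4. With length trends removed, the rpl-41 ratio difference was 0.41 with an adjusted exact p of 0.0571. Signs were compared for the named members only, and among them opposite signs were found for uncalled genes only. Quantile normalization gave 0.061 for rpl-10 and 0.082 for rla-0. DESeq2 gave 0.0033 for rpl-29, and median-of-ratios scaling 0.011 for rpl-24.2. For rpl-25.2, scaling outside the highest 1% gave -0.13, and leaving out day 1 batches 1 and 2 gave -0.038. Without day 1 batches 3 and 4, estimates were 0.25 for rpl-41.1, 0.27 for rpl-29, 0.40 for rps-29 and 0.42 for rpl-24.2. Leaving out 1 library gave -0.55 to 0.059 for rpl-41.1, -0.39 to 0.20 for rpl-29, -0.24 to 0.22 for rps-29 and -0.17 to 0.24 for rpl-24.2. Leaving out a batch gave 0.16 for rpl-41.1 (batch 3), 0.075 and 0.35 for rpl-29 (batches 1 and 3), 0.32 for rps-29 (batch 3), and 0.19 and 0.020 for rpl-24.2 (batches 3 and 4). The cause of these shifts was not tested.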
